A study of Mus musculus with 7 samples.

Results

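Microtubules are built from alpha and beta tubulin, and 37 genes of their building blocks and partners were followed here, out of 54532 genes measured in mouse eye. They were chosen by symbol: alpha, beta, gamma, delta and epsilon tubulins, microtubule-associated proteins (MAPs), severing enzymes, stathmins, and enzymes of tubulin acetylation and detyrosination. The samples were 7 polyadenylated RNA libraries in 3 Agbl5 genotypes: 3 knockout, 2 heterozygous and 2 wildtype. Agbl5 encodes CCP5, an enzyme that trims glutamate side chains from tubulin, and the series asked what it does in photoreceptors. The knockout allele, the strain, the age of the mice and whether libraries of a genotype came from separate animals are not given in the sources used here, so the p-values may measure technical spread. The tissue label read eyeball and the extraction text spoke of retina.

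Microtubules run through the axoneme of the photoreceptor cilium, through axons and dendrites, and through glial processes. Their outer surface carries the acidic carboxyl-terminal tails of tubulin, to which glutamylases add glutamate chains and from which carboxypeptidases such as CCP5 remove them. MAPs and the severing enzymes spastin and katanin bind at these tails, and the length of the glutamate chains is known to tune severing. Acetylation and the removal of the terminal tyrosine of alpha tubulin are further marks of long-lived microtubules.

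The coding ends of 5 beta tubulin genes are printed first, because they encode tails of the kind that carries glutamate chains, the part in which the isotypes differ most. Each line gives the last 20 codons before the stop codon of a GENCODE M21 transcript, with its GRCm38 position and strand, and capitals mark GAA and GAG, the codons for glutamate.
Tubb5 (chr17:35834985-35835044, minus strand): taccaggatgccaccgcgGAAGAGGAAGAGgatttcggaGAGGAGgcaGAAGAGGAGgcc
Tubb2a (chr13:34074471-34074530, minus strand): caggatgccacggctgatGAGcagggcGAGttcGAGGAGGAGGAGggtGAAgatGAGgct
Tubb2b (chr13:34127474-34127533, minus strand): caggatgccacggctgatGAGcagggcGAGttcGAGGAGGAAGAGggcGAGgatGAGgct
Tubb3 (chr8:123421620-123421679, plus strand): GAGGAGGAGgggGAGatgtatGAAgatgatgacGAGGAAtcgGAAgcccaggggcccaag
Tubb4b (chr2:25222311-25222370, minus strand): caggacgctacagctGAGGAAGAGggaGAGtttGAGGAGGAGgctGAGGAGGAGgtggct
All lie in coding exon 4, the last of their transcript. The number of glutamate codons was 9 in Tubb5, 8 in Tubb2a, Tubb2b and Tubb3, and 10 in Tubb4b. The ends of Tubb2a and Tubb2b differed at 3 of 60 bases, and those of Tubb4b and Tubb5 at 25 of 60.

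Agbl5 itself fell in knockout. It was at 9.89 and 8.57 FPKM in wildtype 1 and 2, at 4.21 and 5.34 in heterozygous 1 and 2, and at 1.53, 1.73 and 1.26 in knockout 1, 2 and 3. FPKM are fragments per kilobase of exon, scaled to the size of the library, so levels of different genes can be compared. On the scale of log2(FPKM + 1), knockout minus wildtype was -2.03 ± 0.13 (SE), with a limma adjusted p of 0.00406. The libraries held 12247365 to 14346825 recovered reads. Lens crystallin and fibre markers summed to 3039 FPKM in heterozygous 1 and 5286 in knockout 1 and to between 4.22 and 34.9 elsewhere, so the changes against all controls were also fitted without those 2 libraries. Rod markers summed to 8657 to 9797 FPKM in the controls and 7891 to 8012 in knockout.

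No member passed the test in any comparison of genotypes. The test took genes whose mean over the libraries reached 1 FPKM, which kept 35 of the 37 members and 15472 genes in all, and a gene was called at an adjusted p under 0.05 over all of them. Between knockout and all 4 control libraries, limma called 0 of 35 members and 0.614% of all genes tested. At an unadjusted p under 0.05 there were 7 members (20%, against 12.2% of all genes), and voom on recovered reads called 1 of 34, Tubb2b. Between knockout and wildtype it called 0 members and 0.323% of all genes, with 8 members at an unadjusted p under 0.05 (22.9%, against 7.497% of all genes) and 0 by voom. Between knockout and heterozygous it called 0 members and 0.317% of all genes, with 4 members at an unadjusted p under 0.05 (11.4%, against 12.02% of all genes) and 0 by voom. Between heterozygous and wildtype it called 0 members and 0% of all genes, with 0 members at an unadjusted p under 0.05 (against 4.001% of all genes) and 0 by voom. These comparisons share libraries and are not independent. Values given below as a number ± SE with an adjusted p are limma's log2 changes of (FPKM + 1) against all controls, unless another group is named.

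The intervals bound how large a change could have been missed on the scale tested. For knockout against all controls, the 95% interval of the log2 change lay within a 1.5-fold change either way in 32 of the 35 members, on the scale of log2(FPKM + 1). The exceptions were Tubb2b, Vash1 and Tubb6. The added 1 shrinks the changes of low genes, and the bound holds only for the deposited scaling. For Katnal2 the change was -0.28 here and -0.33 with 0.1 added in place of 1. It was -0.44 with each library scaled to the same FPKM sum. The median log2 change of the 35 members was -0.02, beside 0.00 for all genes tested, with 17 members above 0 and 18 below. Without both lens-rich libraries 0 of 35 members were called and 28 kept their sign. The exceptions were Map1a, Map6, Map7, Mapre1, Mapre2, Tuba8 and Tubd1. A further 8 members (Atat1, Katna1, Map1b, Map2, Map4, Mapt, Tuba1a and Tubb4a) moved by over 1.5 times without a change of sign. These are tissue libraries, so fewer cells of a type and less RNA per cell cannot be told apart.

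**Figure D1:**
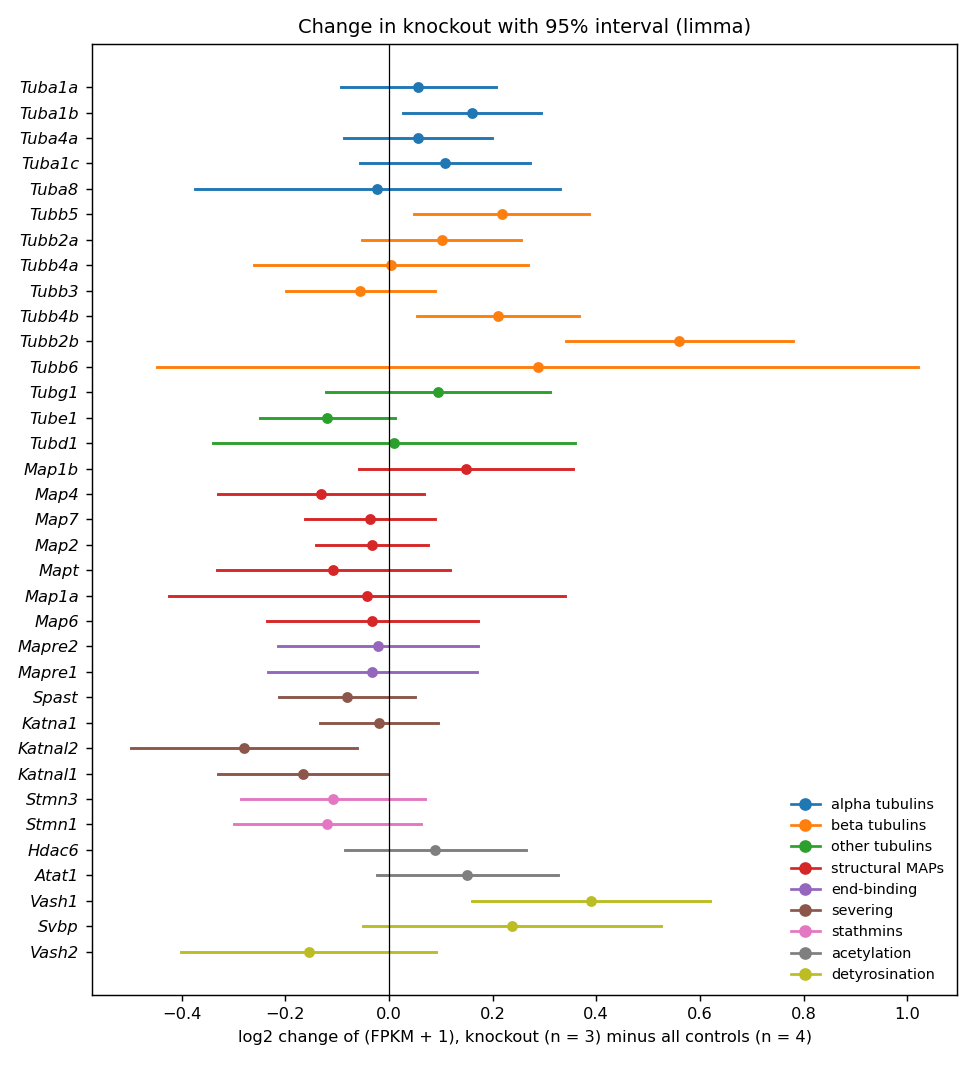
Log2 change of (FPKM + 1) between knockout (n = 3) and all control libraries (n = 4) for the 35 members tested, by class, as points with their 95% limma intervals. Tubb2b lies farthest to the right, at 0.56, and the intervals of 28 members include 0.

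Among alpha tubulins, Tuba1a and Tuba1b made up nearly all of the RNA. Tuba1a, the isotype of postmitotic neurons, was at 224 and 234 FPKM in wildtype 1 and 2, at 260.1 and 225 in heterozygous 1 and 2, and at 249, 242 and 244 in knockout 1, 2 and 3. Heterozygous 1 was highest and the genotypes overlapped, with a log2 change against all controls of 0.06 ± 0.06 (SE; interval -0.09 to 0.21, limma, adjusted p = 0.75). When each library was scaled to the same FPKM sum (the TPM scale), that change was -0.07, while the median of all genes moved to -0.12. Tuba1b, a widely expressed isotype, was at 202 and 199.8 FPKM in wildtype, 214 and 225 in heterozygous and 235, 231 and 239 in knockout. Every knockout library was above every control, by a log2 change of 0.16 ± 0.06 (interval 0.03 to 0.29, adjusted p = 0.338), and 0.04 on the TPM scale.

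The other alpha tubulins were far lower. Tuba4a was between 19.0 and 22.5 FPKM, Tuba1c between 5.08 and 6.38, and Tuba8, a divergent isotype, between 1.80 and 3.10. This order, from Tuba1b down to Tuba8, was the same in all 7 libraries, whereas Tuba1a exceeded Tuba1b in 6 of 7. Tuba1c lay above both wildtype libraries in each knockout library (log2 change against wildtype 0.19 ± 0.07, adjusted p = 0.616) but not above the heterozygous ones. Tuba1a shared 75.5% of its transcript's stretches of 50 bases with other genes, Tuba1b 83.1% and Tuba1c 61.0%, so their separate levels are uncertain. For Tuba4a, 48.8% were shared, nearly all with Stk16, which lies on the opposite strand over 1379 of its exon bases, and the libraries carry no strand. The neighbouring gene model Gm49450 overlaps exons of Tuba1a and Tuba1b.

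**Figure D2:**
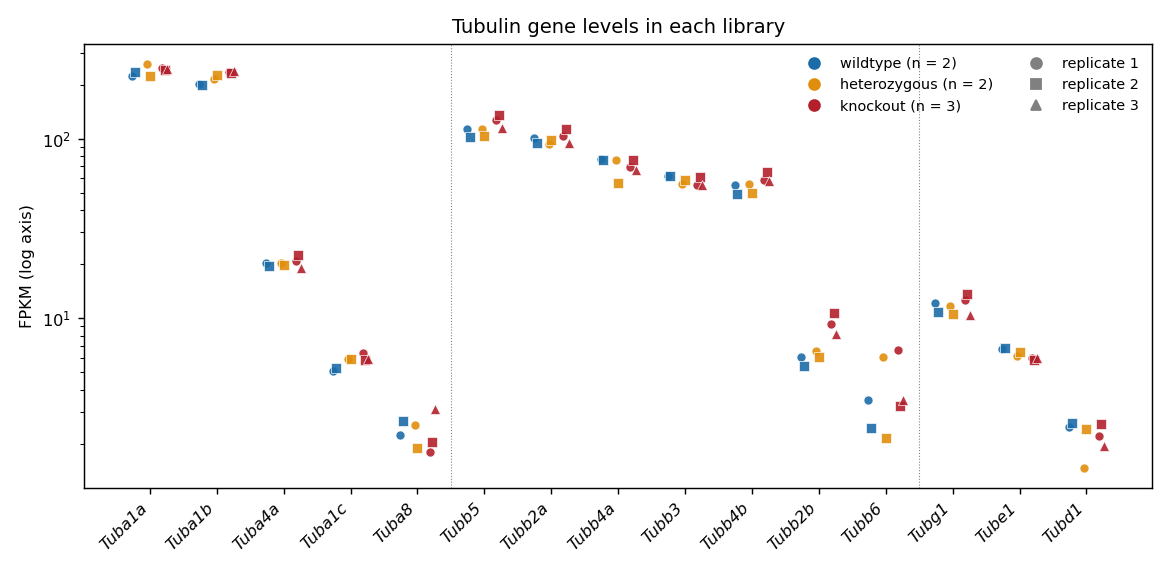
FPKM of the 15 tubulin genes in each of the 7 libraries, on a log axis, coloured by genotype and with a symbol per replicate number. Tuba1a and Tuba1b lie near 200 FPKM, and Tubb6 is high only in heterozygous 1 and knockout 1, at 6.04 and 6.63 FPKM.

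Beta tubulin RNA was spread over more genes than alpha tubulin RNA. Tubb5 was highest, with a mean of 116 FPKM over the 7 libraries, followed by Tubb2a at 99.9 and Tubb4a at 71.2. Tubb3, the neuronal isotype, had a mean of 58.7 FPKM and Tubb4b, an isotype of cilia, 55.9. Tubb3 and Tubb4b could not be ordered, since Tubb3 was higher in 4 of 7 libraries, whereas Tubb5 exceeded Tubb2a in 7 of 7. Tubb2b and Tubb6 were much lower, at means of 7.45 and 3.93 FPKM.

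Tubb2b, an isotype of developing neurons and glia, came closest to a call. It was at 6.05 and 5.38 FPKM in wildtype 1 and 2, 6.54 and 6.08 in heterozygous 1 and 2, and 9.29, 10.6 and 8.19 in knockout 1, 2 and 3. The 3 knockout libraries lay above all 4 controls, and knockout 2 was highest. The mean was 9.37 ± 1.22 FPKM in knockout (SD, n = 3) and 6.01 ± 0.480 in controls (n = 4), a ratio of 1.56. The log2 change against all controls was 0.56 ± 0.09 (interval 0.34 to 0.78, limma, adjusted p = 0.060), and against wildtype it was 0.62 ± 0.11 (adjusted p = 0.158). Against heterozygous it was 0.50 ± 0.11 (adjusted p = 0.228), and heterozygous against wildtype gave 0.12. Over 14 alternatives the change against all controls ran from 0.47 to 0.64. Voom called it, with adjusted p = 0.0235, and the other 13 did not, with adjusted p up to 0.246. Without both lens-rich libraries the change was 0.60 (adjusted p = 0.246).

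Tubb2b rests on 182 to 344 reads per library. It shared 39.3% of its stretches of 50 bases with other genes, mostly the adjacent Tubb2a, whose coding end printed above is nearly the same. Tubb2a was at 100.2 and 95.2 FPKM in wildtype, 93.8 and 97.7 in heterozygous and 104, 114 and 95.2 in knockout. Its genotypes overlapped, with a log2 change against all controls of 0.10 ± 0.07 (interval -0.05 to 0.26, adjusted p = 0.567). How reads were divided between the pair was not tested. All 6 markers of gliosis were measured, and they summed to 131 to 192 FPKM in knockout and 42.7 to 95.5 in controls. Heterozygous 1 had the highest sum among the controls. Edn2 was at 50.9 to 60.1 FPKM in knockout and 1.47 to 3.10 in controls. Gfap, Serpina3n and A2m were also higher in each knockout library than in any control. Vim and Lcn2 overlapped, with Vim at 73.9 FPKM in heterozygous 1 and at 46.2 and 40.0 in knockout 2 and 3. The part of gliosis in the Tubb2b difference was not tested.

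Tubb5 and Tubb4b were also higher in each knockout library than in any control, without passing. Tubb5, a widely expressed isotype, was at 114 and 103 FPKM in wildtype, 113 and 104 in heterozygous and 128, 136 and 115 in knockout. Knockout 3 stood just above wildtype 1, and the log2 change against all controls was 0.22 ± 0.07 (interval 0.05 to 0.39, adjusted p = 0.313). Tubb4b was at 55.1 and 48.9 FPKM in wildtype, 55.5 and 49.8 in heterozygous and 59.0, 64.8 and 58.2 in knockout. Its log2 change was 0.21 ± 0.07 (interval 0.05 to 0.37, adjusted p = 0.294), and 55.5% of its stretches of 50 bases were shared, mostly with a pseudogene, Tubb4b-ps1. On the TPM scale the changes were 0.09 for both Tubb5 and Tubb4b.

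Tubb3 and Tubb4a, isotypes of mature neurons, did not follow that order. Tubb3 was at 62.1 FPKM in wildtype 1 and in wildtype 2, 55.8 and 58.6 in heterozygous and 55.1, 61.5 and 55.5 in knockout. Its log2 change against all controls was -0.06 ± 0.06 (adjusted p = 0.746). Tubb4a was at 76.6 and 76.0 FPKM in wildtype, 75.9 and 56.8 in heterozygous and 69.8, 76.5 and 66.9 in knockout (0.00 ± 0.11, adjusted p = 0.992). Heterozygous 2 stood alone at the bottom. Tubb6 was at 6.04 FPKM in heterozygous 1 and 6.63 in knockout 1, and between 2.14 and 3.502 in the other 5 libraries. Both lens-rich libraries lay above the other 5 in 2 of 35 members, Tuba1a and Tubb6 (5.71%, beside 6.86% of all genes tested). Pigment epithelium markers also had their highest sums in those 2 libraries (215 and 250 FPKM, at most 153 elsewhere). So did vascular (37.8 and 26.7, at most 21.3 elsewhere) and cornea markers (4.83 and 5.48, at most 2.58 elsewhere). Not every single marker did so, as Rgr and Cldn5 were highest in knockout 3. The part of the lens markers or of these others in Tubb6 was not tested. Without those 2 libraries no member was called between knockout and all controls.

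Shares within a family do not move with the scaling of a library, so they were set beside the levels. Tubb2b made up 1.45%, 1.37%, 1.61% and 1.62% of beta tubulin FPKM in wildtype 1, wildtype 2, heterozygous 1 and heterozygous 2. It made up 2.15%, 2.28% and 2.04% in knockout 1, 2 and 3. The knockout shares of Tubb2b, Tubb5 and Tubb4b lay above all controls. Tubb5 had 29.1% ± 0.559 in knockout (SD, n = 3) and 27.2% ± 0.764 in controls (n = 4), and Tubb4b had 14.0% ± 0.406 and 13.2% ± 0.506. Tubb3 went the other way, with 13.3% ± 0.515 in knockout and 15.01% ± 0.947 in controls, but knockout 3 overlapped heterozygous 1. In exact two-sided permutation tests over 12 isotypes, these 3 separated shares each gave p = 0.0571, the smallest that 3 against 4 libraries allow, and adjusted p = 0.229. Tubb3 gave exact p = 0.114. None of the 5 alpha isotypes separated, with 48.1% ± 0.407 of alpha tubulin FPKM from Tuba1a in knockout and 49.7% ± 2.01 in controls (exact permutation p = 0.286).

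**Figure D3:**
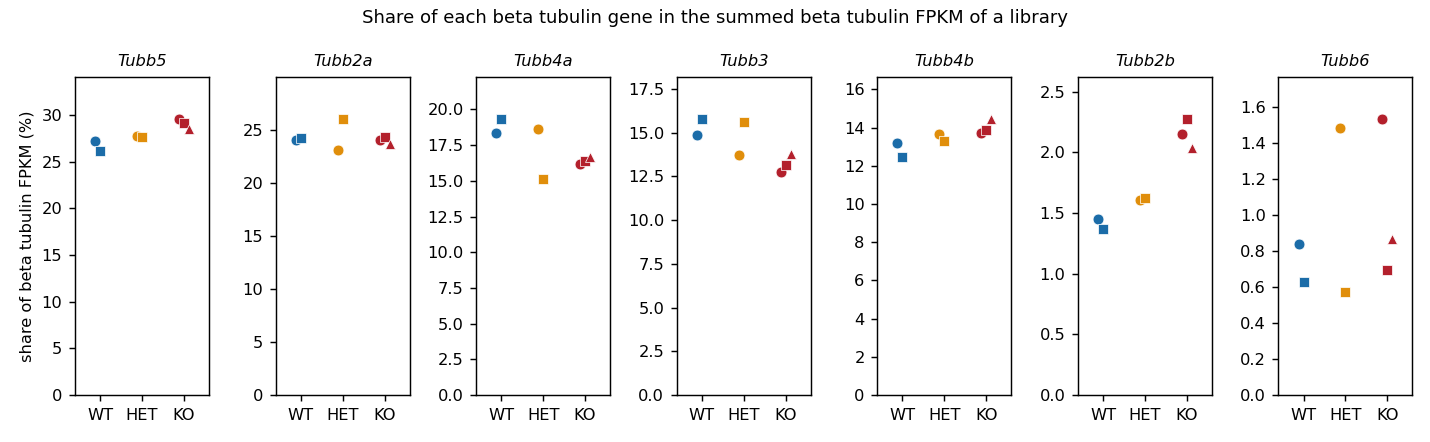
Share of each beta tubulin gene in the summed beta tubulin FPKM of a library, in percent, by genotype (WT wildtype, HET heterozygous, KO knockout), 1 point per library and a scale per panel. The knockout points of Tubb5, Tubb4b and Tubb2b lie above all control points, and those of Tubb2b lie between 2.04% and 2.28%.

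Weighted by these shares, the number of glutamate codons in the beta tubulin tails depended on the length of tail counted. The mean number among the last 20 codons of beta tubulin RNA was 8.72, 8.70, 8.74 and 8.69 in wildtype 1 and 2 and heterozygous 1 and 2, and 8.73, 8.73 and 8.74 in knockout. Heterozygous 1 lay among the knockout libraries, and the difference was 0.0217 codons (exact two-sided permutation p = 0.171, where the smallest that 3 against 4 libraries allow is 0.0571). Over the last 15 codons it was 8.12, 8.07, 8.19 and 8.07 in the same controls and 8.22, 8.21 and 8.19 in knockout. There all knockout libraries lay above all controls, with knockout 3 (8.1889) just above heterozygous 1 (8.1888). The difference was 0.0921 codons (exact two-sided permutation p = 0.0571). Tubb3 was the only beta tubulin gene whose count changed with the length, with 8 glutamate codons among the last 20 and 4 among the last 15. The results for the last 20 and the last 15 codons therefore differ only through the share of Tubb3. These counts describe the RNA pool and not the modified protein.

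Summed alpha tubulin was at 454 to 503 FPKM in controls and 503 to 513 in knockout, with heterozygous 1 (502.9) just below knockout 2 (503.4; exact permutation p = 0.0571). On the TPM scale the families' sums overlapped, at 1805 to 1974 in controls and 1720 to 1960 in knockout for alpha. Summed beta tubulin overlapped on both scales (exact permutation p = 0.171 for the values as deposited and p = 0.857 for TPM).

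Gamma, delta and epsilon tubulin serve nucleation and the centriole rather than the microtubule wall. Tubg1, the gamma tubulin of the ring complex, was at 12.2 and 10.8 FPKM in wildtype, 11.7 and 10.5 in heterozygous and 12.6, 13.5 and 10.4 in knockout (0.09 ± 0.09, adjusted p = 0.71, and -0.02 on the TPM scale). The genotypes overlapped, and knockout 3 was lowest. Tube1, the epsilon tubulin of centriole triplets, was at 6.74 and 6.80 FPKM in wildtype, 6.16 and 6.45 in heterozygous and 5.99, 5.82 and 6.01 in knockout. All knockout libraries lay below all controls, by a log2 change of -0.12 ± 0.06 (interval -0.25 to 0.01, adjusted p = 0.443), and -0.25 on the TPM scale. Exons of Ccn6, on the opposite strand, overlap 482 exon bases of Tube1. Tubd1, the delta tubulin, was between 1.47 and 2.59 FPKM on 43 to 81 reads (0.01 ± 0.15, adjusted p = 0.987).

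In all, 6 members lay above all controls in each knockout library and 2 lay below. Those above were Tuba1b, Tubb5, Tubb4b, Tubb2b, Vash1 and Atat1, or 17.1% of the members tested, beside 6.75% of all genes tested. Those below were Tube1 and Katnal2, or 5.71% of the members, beside 6.26% of all genes. None of the 8 passed the test. These counts hold for FPKM as deposited, and separation was not counted on the TPM scale. There the log2 changes were 0.04 for Tuba1b and Atat1, 0.09 for Tubb5 and Tubb4b, 0.49 for Tubb2b and 0.29 for Vash1. They were -0.25 for Tube1 and -0.44 for Katnal2, beside a median of -0.12 for all genes. The gliosis sums above and the microglia sums (17.9 to 20.7 FPKM in knockout, 8.64 to 10.6 in controls) also separated these libraries, and their part in these 8 differences was not tested.

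**Figure D4:**
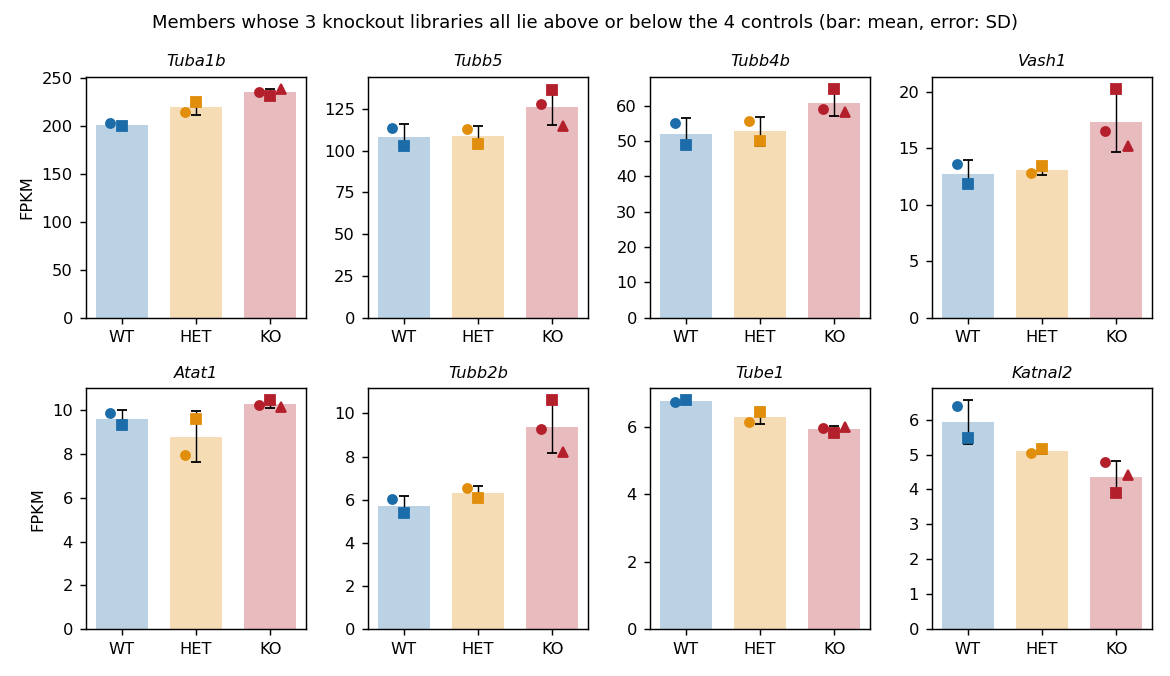
FPKM by genotype of the 8 members whose 3 knockout libraries all lie above or all below the 4 controls; bars are means, error bars SD (n = 2, 2 and 3) and points are libraries. Relative to the level, the gap between the nearest knockout and control libraries is widest for Tubb2b (a ratio of 1.25) and Vash1 (1.11), and in Tubb5 knockout 3 (115 FPKM) sits close to wildtype 1 (114 FPKM).

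The structural MAPs, which line and stabilise microtubules, lay close together across genotypes. Of 7 tested, 0 were called, 6 had a log2 change below 0 against all controls and 1 above, and none separated the groups. Of the 6, the sign changed in 4 of 14 alternatives for Map1a, 3 for Map6 and 1 each for Map2 and Map7. Their median was -0.04. Map1b, a MAP of growing axons and the highest of the class, was at 51.9 and 54.5 FPKM in wildtype, 56.0 and 45.3 in heterozygous and 52.7, 62.6 and 57.7 in knockout. Its groups overlapped (0.15 ± 0.09, interval -0.06 to 0.35, adjusted p = 0.533). The change was 0.25 without both lens-rich libraries, 0.09 without heterozygous 2 or without knockout 2, and 0.03 on the TPM scale. Map4, the broadly expressed MAP, ran from 46.6 to 59.3 FPKM and exceeded Map1b in 4 of 7 libraries, so the pair could not be ordered. Below them came Map7, a kinesin cofactor, with a mean of 37.8 FPKM, the dendritic Map2 at 32.0 and the axonal Mapt, which encodes tau, at 24.1. Map1a followed at 14.4 FPKM and Map6, which protects microtubules from cold, at 11.6.

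Map1a, Map4 and Mapt were lower in each knockout library than in both wildtype libraries, but not lower than heterozygous 2. In this comparison 8 of 35 members lay below both wildtype libraries, Mapre2 and Stmn1 included, and 8 lay above, Tuba1c included. The share over all genes was not counted against wildtype alone, so no excess can be read from these. Map1a was at 16.3 and 16.6 FPKM in wildtype, 15.4 and 10.3 in heterozygous and 12.7, 16.2 and 13.3 in knockout. Its log2 change against wildtype was -0.22 ± 0.17 (interval -0.62 to 0.18, adjusted p = 0.8285), and that of heterozygous against wildtype was -0.36 ± 0.18 (adjusted p = 0.974). Mapt was at 26.3 and 26.6 FPKM in wildtype, 25.8 and 20.8 in heterozygous and 21.3, 24.9 and 22.8 in knockout (-0.20 ± 0.11 against wildtype, adjusted p = 0.76). Map4 had a log2 change of -0.17 ± 0.11 against wildtype (adjusted p = 0.787). Map2 lay between 30.0 and 32.8 FPKM, with an interval of -0.14 to 0.07 against all controls.

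Heterozygous 2 was the lowest of the 7 libraries in 9 of 35 members and the highest in 0, beside 16.2% and 13.7% of all genes tested. The 9 were Map1a, Map1b, Map4, Map6, Mapt, Mapre2, Stmn1, Tubb4a and Tubb6. Knockout 2 was the highest in 10 of 35 members, beside 16.8% of all genes, and these included Tubb2a, Tubb2b, Tubb4b, Tubb5, Map1b and Vash1. Ganglion cell markers (9 of 9 at 1 FPKM or more) summed to 276 to 300.2 FPKM in wildtype and heterozygous 1, 266 in heterozygous 2 and 253 to 291 in knockout. Their part in the levels of these neuronal genes was not tested.

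**Figure D5:**
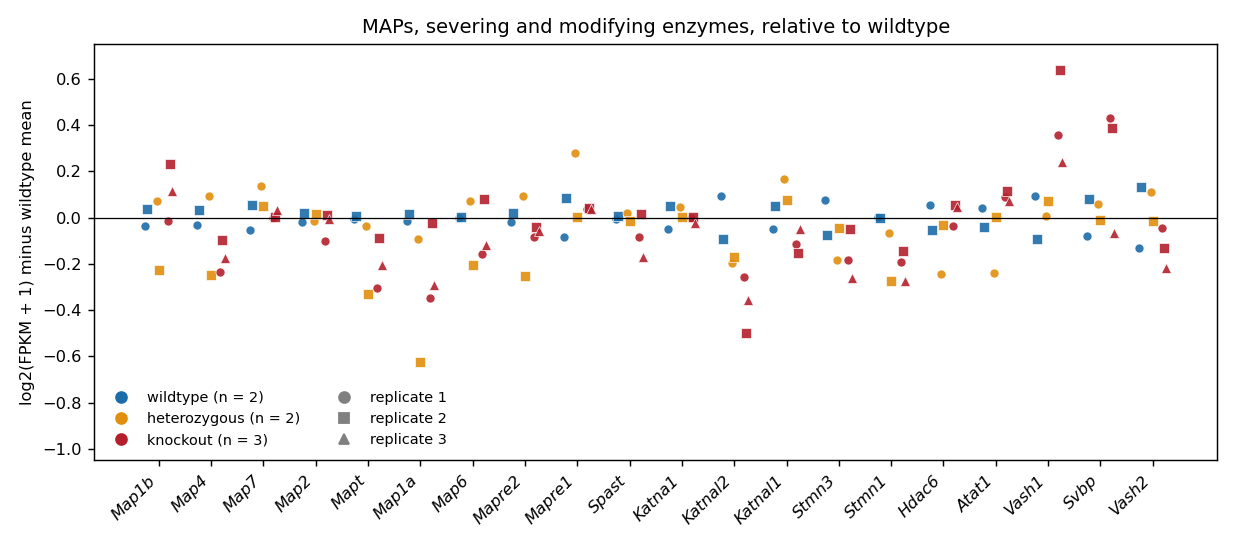
Difference in log2(FPKM + 1) from the wildtype mean, for the 20 tested MAPs, end-binding proteins, severing enzymes, stathmins and modifying enzymes, 1 point per library. Heterozygous 2 (orange squares) lies lowest for Map1a, Map1b, Map4 and Mapt, and the knockout points of Vash1 lie above all others.

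End-binding proteins mark growing plus ends. Mapre2, which encodes EB2, was at 19.0 and 19.6 FPKM in wildtype, 20.6 and 16.0 in heterozygous and 18.2, 18.7 and 18.5 in knockout (-0.02 ± 0.08, adjusted p = 0.936). The knockout libraries lay below both wildtype libraries and above heterozygous 2. Mapre1, which encodes EB1, was between 8.81 and 11.6 FPKM, with knockout libraries at 9.67 to 9.71 (-0.03 ± 0.09, adjusted p = 0.909).

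Severing enzymes cut microtubules and are recruited by glutamylated tails. Of 6, Spast, Katna1, Katnal1 and Katnal2 were tested, 0 were called, and all 4 had a log2 change below 0 against all controls, with a median of -0.12 and the same sign under all 14 alternatives. These alternatives reuse the same libraries. Of 3 other severing genes tested, from the further list described below, 2 were above 0 and 1 below, with a median of 0.12. Spast, which encodes spastin, was at 11.7 and 11.8 FPKM in wildtype, 11.9 and 11.6 in heterozygous and 11.01, 11.9 and 10.3 in knockout. Its groups overlapped (-0.08 ± 0.06, interval -0.21 to 0.05, adjusted p = 0.59). Katna1, the catalytic subunit of katanin, was between 10.03 and 10.8 FPKM in all libraries (-0.02 ± 0.05, interval -0.13 to 0.09, adjusted p = 0.899).

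Katnal2, a katanin-like protein linked to cilia and sperm flagella, was at 6.38 and 5.49 FPKM in wildtype, 5.04 and 5.15 in heterozygous and 4.78, 3.89 and 4.41 in knockout. Every knockout library was below every control and every heterozygous library below both wildtype libraries. Heterozygous against wildtype gave a log2 change of -0.18 ± 0.11 (interval -0.45 to 0.08, adjusted p = 0.974). Knockout against heterozygous gave -0.19 ± 0.10 (interval -0.43 to 0.05, adjusted p = 0.498). The log2 change of knockout was -0.28 ± 0.09 against all controls (interval -0.50 to -0.06, adjusted p = 0.318) and -0.37 ± 0.10 against wildtype (adjusted p = 0.431). On the TPM scale it was -0.44 against all controls (adjusted p = 0.206). It rests on 223 to 379 reads per library. Katnal1 was at 4.39 and 4.78 FPKM in wildtype, 5.26 and 4.89 in heterozygous and 4.16, 4.02 and 4.396 in knockout. Knockout 3 stood at the level of wildtype 1, and the log2 change against all controls was -0.17 ± 0.07 (adjusted p = 0.405). Fign and Fignl1, which encode the fidgetins, were under the filter. Fign was between 0.384 and 0.760 FPKM, and Fignl1 between 0.117 and 0.380 on 8 to 26 reads.

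Stathmins bind free tubulin dimers and favour shrinkage. Stmn3, the higher of the pair, was at 117 and 105 FPKM in wildtype, 97.3 and 107 in heterozygous and 97.3, 107 and 92.1 in knockout. The groups overlapped (-0.11 ± 0.08, adjusted p = 0.599). Stmn1 was at 48.6 FPKM in wildtype 1 and in wildtype 2, 46.3 and 40.0 in heterozygous and 42.4, 43.8 and 40.0 in knockout. Knockout libraries lay below both wildtype libraries (-0.20 ± 0.08 against wildtype, adjusted p = 0.624) but not below heterozygous 2. Of its stretches of 50 bases, 38.2% were shared with the gene model Gm11223.

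Acetylation of alpha tubulin is written by Atat1 and removed by Hdac6. Hdac6 was at 15.8 and 14.6 FPKM in wildtype, 12.6 and 14.8 in heterozygous and 14.7, 15.7 and 15.7 in knockout (0.09 ± 0.08, adjusted p = 0.658, and -0.03 on the TPM scale). The groups overlapped. Atat1 was at 9.90 and 9.31 FPKM in wildtype, 7.97 and 9.62 in heterozygous and 10.3, 10.5 and 10.1 in knockout. Its knockout libraries lay above all controls by a log2 change of 0.15 ± 0.07 (interval -0.02 to 0.33, adjusted p = 0.462), and 0.04 on the TPM scale. Without heterozygous 1 the change was 0.09 (adjusted p = 0.533), and without both lens-rich libraries it was 0.09 (adjusted p = 0.709).

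Detyrosination is carried out by the vasohibins Vash1 and Vash2 with their cofactor Svbp. Vash1 was at 13.6 and 11.8 FPKM in wildtype 1 and 2, 12.8 and 13.4 in heterozygous and 16.5, 20.3 and 15.2 in knockout. All knockout libraries were above all controls and knockout 2 was highest. The means were 17.3 ± 2.65 (SD, n = 3) and 12.9 ± 0.803 FPKM (n = 4), a ratio of 1.34. The log2 change was 0.39 ± 0.10 against all controls (interval 0.16 to 0.62, adjusted p = 0.201) and 0.41 ± 0.13 against wildtype (adjusted p = 0.515). Over 14 alternatives it ran from 0.28 to 0.48 against all controls, with 0 calls and adjusted p from 0.0985 to 0.464. Vash1 (chr12:86678700-86692091, plus strand, GRCm38) shared no stretch of 50 bases with another gene, and rests on 455 to 744 reads. The gliosis and microglia marker sums were also higher in each knockout library than in any control. Their part in the Vash1 difference was not tested.

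Svbp was at 4.69 and 5.35 FPKM in wildtype, 5.25 and 4.96 in heterozygous and 7.10, 6.85 and 4.74 in knockout. Knockout 1 and 2 were above every control and knockout 3 was among them, and the log2 change was 0.24 ± 0.12 (interval -0.05 to 0.53, adjusted p = 0.479). Vash2 was between 1.31 and 1.94 FPKM on 77 to 126 reads (-0.15 ± 0.11, adjusted p = 0.587).

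Other microtubule genes gave the same count of 0 calls. A list of 58 further genes held other tubulins, the gamma tubulin ring, more MAPs and plus-end proteins, katanin regulators, depolymerising factors, tubulin folding cofactors and tubulin modifiers, and 50 of them were tested. Limma called 0 of 50 in each comparison, and at an unadjusted p under 0.05 there were 5 against wildtype (10%), 8 against heterozygous (16%), 9 against all controls (18%) and 1 between heterozygous and wildtype (2%), beside the shares of all genes given above. Voom called 0 of the 48 it could test in each comparison. Against all controls 23 had a log2 change above 0 and 27 below, with a median of -0.02, from -0.27 for Mzt1, a gamma tubulin ring component, to 0.24 for Tbcc, a tubulin folding cofactor. The 8 under the filter were Tuba3a, Tuba3b, Tubal3, Tubb1, Map7d3, Kif2c, Kif18a and Kif18b.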

How the data were processed

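Per the labels' protocols, libraries were made from poly(A) RNA with a NEBNext Ultra kit without strand marking. The authors deposited FPKM for 54532 genes, 1 column per library. HTSeq, DESeq, Bowtie2 (2.0.6) and TopHat2 (2.0.9) are named per the submitters' processing notes, as are the builds GRCm38 and mm10. Their settings and the annotation are not given in the sources used here. With exon lengths from GENCODE M21, 96.8% of values above 0 were whole multiples of 1 read within 0.01, which gave reads for 32117 genes. A single read on 1 kilobase stood for 0.0663 to 0.0766 FPKM. Log2(FPKM + 1) was tested with limma 3.58.1 in R 4.3.3 (mean-variance trend, Benjamini-Hochberg adjustment): a fit of 3 genotypes for the pairwise comparisons, and a fit of 2 groups for knockout against heterozygous and wildtype together. The fit was also run on reads simulated with a fixed spread and without lens-rich libraries, unlike these data, and no result here rests on that run. SE and 95% intervals are limma's, unadjusted. Shares used exact permutation.

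Members and lists were chosen with earlier results of these data known. Full values are given for members that were called, that did not overlap the controls, or that were highest in their class; others are named with ranges, and some of them with full values chosen after seeing them. Glutamate codons of beta tubulins were counted in the principal GENCODE transcript in place of residues; those of alpha tubulins are not reported here. Alternatives were a pseudocount of 0.1, no filter, the TPM scale, voom, leaving out each library or both lens-rich ones, the lens level as a covariate and a replicate block.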

Additional observations from a re-analysis of the deposited data

Results flagged for a closer look

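Among the 4 control libraries of both genotypes, 1 library stood far from the other 3 in 4 of the 50 values examined, and chance alone gives about 5% of such cases. Tubb4a was at 56.8 FPKM in heterozygous 2 and between 75.9 and 76.6 in the others. Mapt was at 20.8 FPKM in heterozygous 2 and between 25.8 and 26.6 in the others. Tubd1 was at 1.47 FPKM in heterozygous 1 against 2.41 to 2.59, and Fignl1 at 0.380 FPKM in heterozygous 1 against 0.274 to 0.285, both on few reads.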

How the results depend on the processing

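The count of members called was 0 in each of the 4 comparisons and stayed 0 under the alternatives run, leaving out each library included, except that voom called 1 member, Tubb2b, between knockout and all controls; the cause was not tested. With the replicate number as a block the counts were 0 as well. Knockout 3 was the only library numbered 3, so the block took it out of the comparison. The Tubb2b change was 0.6443 both with the block and without knockout 3. Deviations of same-numbered libraries from their genotype means had correlations of -0.02 to 0.43, the highest between the lens-rich heterozygous 1 and knockout 1. In a genotype of 2 libraries these deviations mirror each other, and differently numbered libraries were not compared. The correlations therefore cannot decide whether the numbers pair the samples. The labels name no pairing, and none was used in the main test. Over all genes, knockout against all controls gave 95 calls, and 63 on the TPM scale, 153 with voom, 48 without both lens-rich libraries, 38 with the block and 45 to 90 with 1 library left out. Knockout against wildtype gave 50 calls, and 28 on the TPM scale, 77 with voom, 28 with the lens covariate, 3 without both lens-rich libraries, 3 with the block and 5 to 53 with 1 library left out, the lowest without wildtype 1 or wildtype 2. Knockout against heterozygous gave 49 calls, and 86 with voom, 0 without both lens-rich libraries, 0 with the block and 14 to 40 with 1 library left out, the lowest without heterozygous 1. Heterozygous against wildtype gave 0, and 19 with no filter and 0 to 3 with 1 library left out.

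Some small differences between knockout and all controls changed sign. With TPM, which put the all-gene median at -0.12, 7 of 35 did so: Tuba1a (-0.0678), Tubg1 (-0.022), Hdac6 (-0.0285), Tubb2a (-0.02), Tuba4a (-0.07), Tubb4a (-0.12) and Tubd1 (-0.09). Changes below 0 were larger there, as for Spast (-0.21) and Stmn3 (-0.23). Mapre2 ran from -0.0922 (without heterozygous 2) to 0.0233 (without heterozygous 1) with 1 library left out and was 0.0342 without both lens-rich libraries. With 1 library left out, the share differences, in percentage points, ran from -0.3149 to 0.0554 for Tuba4a, -0.0075 to 0.0401 for Tuba1c, -0.1148 to 0.013 for Tuba8, -0.7636 to 0.2295 for Tubb2a and -0.0997 to 0.3543 for Tubb6. The sign changed without knockout 3 for Tuba4a, without heterozygous 2 for Tubb2a and without knockout 1 for the others. Without both lens-rich libraries Tuba1c gave -0.0041 and Tuba8 0.0167. With 2 or 3 libraries per genotype, small changes were not detectable.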
